A study of Mus musculus with 12 samples.

Results

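Keratins of luminal and of hillock epithelium were followed in airway organoids after a small laser wound. The 6 genes Krt8, Krt18, Krt19, Krt7, Krt4 and Krt13 were chosen by name, as the keratins of luminal, simple and hillock cells, from a table of 55401 mouse genes. Each of them was listed there once, and all 6 were among the 13792 genes that passed the filter for testing (10 or more normalized counts in 6 or more of the libraries). The organoids were grown from airway epithelial cells isolated from the lungs of adult C57BL/6J mice. Cells in all 12 dishes carried a lentiviral vector that expresses a fusion of histone H2A and mCherry from a p63 promoter, so the controls shared this modification. In 6 dishes (ablation), 10 adjacent cells in each of 45 organoids were destroyed with a femtosecond laser, whereas the organoids of 6 further dishes (control, also 45 per dish) were left intact. Medium without supplements was given 1 h before the laser step, and the RNA of each dish was collected 4.5 h after it. An ablation dish and a control dish with the same number formed a pair that shared passage and culture day. Pairs 1, 4 and 5 were on culture day 14 or 15 and pairs 6, 7 and 3 on day 18, 19 or 20, at passages labelled P2+14 (pairs 1 and 3), P2+15 (pairs 4 and 5) and P2+16 (pairs 6 and 7). Library numbers fell into 2 sets, pairs 1, 3 and 5 in library set 1 and pairs 4, 6 and 7 in library set 2. The titles of control dishes 4, 6 and 7 contain the word ablation, but their treatment label names them as controls, and that label was followed.

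Keratins are the intermediate filament proteins of epithelial cells, and a filament is built from heterodimers of a type I keratin (Krt18, Krt19 and Krt13 here) with a type II keratin (Krt8, Krt7 and Krt4). In the airways, basal cells are known for Krt5 and Krt14, whereas Krt8 and its partner Krt18 are raised as cells leave the basal layer and become luminal. Krt7 and Krt19 are further keratins of simple epithelium, and Krt19 is the smallest of the keratins. Krt13 and its partner Krt4 are keratins of stratified, non-cornified epithelium and mark hillocks, small stratified patches of the airway lining. Since each library held the RNA of whole organoids, fewer cells of a type and less RNA per cell cannot be told apart in any of the values below.

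In the annotation of GRCm38, the type II genes and Krt18 lay on chromosome 15 and the other type I genes on chromosome 11. Krt8 (ENSMUSG00000049382.10, chr15:101996698-102004482, minus strand) and Krt18 (ENSMUSG00000023043.7, chr15:102028180-102032027, plus strand) were neighbours transcribed away from each other, with 23.7 kb between them. Krt4 (ENSMUSG00000059668.6, chr15:101918535-101924735, minus strand) lay 72.0 kb from Krt8, and Krt7 (ENSMUSG00000023039.17, chr15:101411043-101430313, plus strand) lay 566 kb from it. On chromosome 11, Krt13 (ENSMUSG00000044041.4, chr11:100117327-100121566, minus strand) and Krt19 (ENSMUSG00000020911.14, chr11:100140810-100148665, minus strand) were separated by 19.2 kb, and the basal keratin Krt15 lay between them. Values are counts per gene over all of its exons.

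As Krt8 and Krt18 varied together over the pairs and Krt13 varied most among the keratins with a sequence at hand, the bases just before their outermost annotated starts are given, 5′ to 3′ on the strand of the gene, from RefSeq on GRCm38.p6 (chr15:102004483-102004592 for Krt8, chr15:102027980-102028179 for Krt18 and chr11:100121567-100121766 for Krt13). Capitals mark a match to the AP-1 motif TGANTCA.
Krt8: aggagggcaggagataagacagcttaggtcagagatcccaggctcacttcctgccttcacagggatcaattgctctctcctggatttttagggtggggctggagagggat
Krt18: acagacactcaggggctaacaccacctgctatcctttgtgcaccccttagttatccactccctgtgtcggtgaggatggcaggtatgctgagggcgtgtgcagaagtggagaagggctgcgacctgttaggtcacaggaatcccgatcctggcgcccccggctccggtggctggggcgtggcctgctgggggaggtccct
Krt13: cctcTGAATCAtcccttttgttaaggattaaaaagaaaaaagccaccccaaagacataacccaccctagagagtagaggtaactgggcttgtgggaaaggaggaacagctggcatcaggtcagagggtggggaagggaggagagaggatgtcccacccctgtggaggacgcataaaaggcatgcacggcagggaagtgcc

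Both strands of the 250 bases before each start were searched for the AP-1 motif and for the letters TATAAA of the TATA box. The GC box was searched as GGGCGG and the Grainyhead-like motif as AACNNGTT, and the matches named here do not overlap each other. Among 32851 RefSeq promoters of that length, 12.4% held the TATA box, 6.75% the AP-1 motif, 32.7% the GC box and 3.64% the Grainyhead-like motif. Krt13 held the AP-1 letters 196 bases before this start, and a further annotated start inside the gene had them 183 and 34 bases before it. Krt7 held the GC box 4 times, counting both strands. No match to these letters was found in the windows of Krt8 and Krt18, and the windows of Krt4 and Krt19 were not analysed here.

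All 6 keratins were abundant. The values are DESeq2 normalized counts, that is, reads per gene divided by a factor for the size of each library, and their sum was 27297900 to 28504400 per library. In the 9 libraries whose read numbers were accepted as recovered from the values, totals were 23631200 to 29775700 reads. The least counted keratin of the 6 still had 5492 reads there, a counting error of 1.35%. Together, the 6 keratins made up 0.666% to 0.838% of all counts and 19.6% to 25.9% of the counts of 54 keratin genes. The basal and stress keratins (Krt5, Krt14, Krt15, Krt17, Krt6a, Krt6b and Krt16) took 73.2% to 79.8%.

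Per kilobase of the main transcript, Krt19 was highest with 55189 ± 4628 normalized counts per kb (SD, n = 12 libraries), and it exceeded the next, Krt13, in 12 of 12 libraries without overlap. Krt13 followed with 18065 ± 4535, Krt8 with 13266 ± 1568 and Krt7 with 12556 ± 1708. These neighbours in the order overlapped: Krt13 was above Krt8 in 10 of 12 libraries, and Krt8 above Krt7 in 9 of 12. Krt18 with 6050 ± 768 per kb was below Krt7 in 12 of 12 libraries, and Krt4 with 4311 ± 1758 was lowest on average, but exceeded by Krt18 in only 9 of 12. The place of Krt7 depended on the length used, since over all merged exons (7049 bases in place of 4094) its level was 7292 ± 992 per kb and below that of Krt8 in 12 of 12 libraries.

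The labelled tissue was checked against marker genes, and within the hillock, secretory and alveolar lists some markers were abundant and others near 0. The basal keratin Krt5 reached 229016 to 340094 normalized counts. Among the hillock and squamous markers, Anxa1 (118888 to 165084), Ecm1 (16328 to 32816) and Lgals3 (12294 to 24678) were abundant, as were Cyp2f2, a cytochrome P450 of club cells (26191 to 78597), and Aldh1a1 (2015 to 5056) among the secretory markers and Hopx (14293 to 20222) among the alveolar ones. Near 0 were Scgb1a1, the secretoglobin of club cells, at 0 to 9.65, Foxj1, the master regulator of multiciliated cells, at 2.92 to 18.1, and, as the only hillock marker too low to be tested, Cldn3, a claudin, at 0 to 6.76. The club cell gene Bpifb1 and the alveolar genes Sftpc and Sftpb were listed at 0 in all 12 libraries. Summed over their lists, the 11 secretory markers reached 31759 to 86466 normalized counts in ablation and 36457 to 72914 in control dishes. The 8 alveolar markers reached 15442 to 21535 and 17178 to 21020. Most of the secretory sum was Cyp2f2, and most of the alveolar sum was Hopx. The 10 multiciliated markers reached only 53.4 to 82.9 in ablation and 59.4 to 105 in control dishes, and the 9 tuft, neuroendocrine and ionocyte markers 197 to 355 and 234 to 363. The 9 fibroblast and smooth muscle markers reached 22.0 to 47.9 and 19.8 to 51.1, and the 9 immune and endothelial markers 138 to 178 and 159 to 227. Apart from the genes that the selection rule gives, the markers in this paragraph were chosen after their values were seen.

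**Figure D1:**
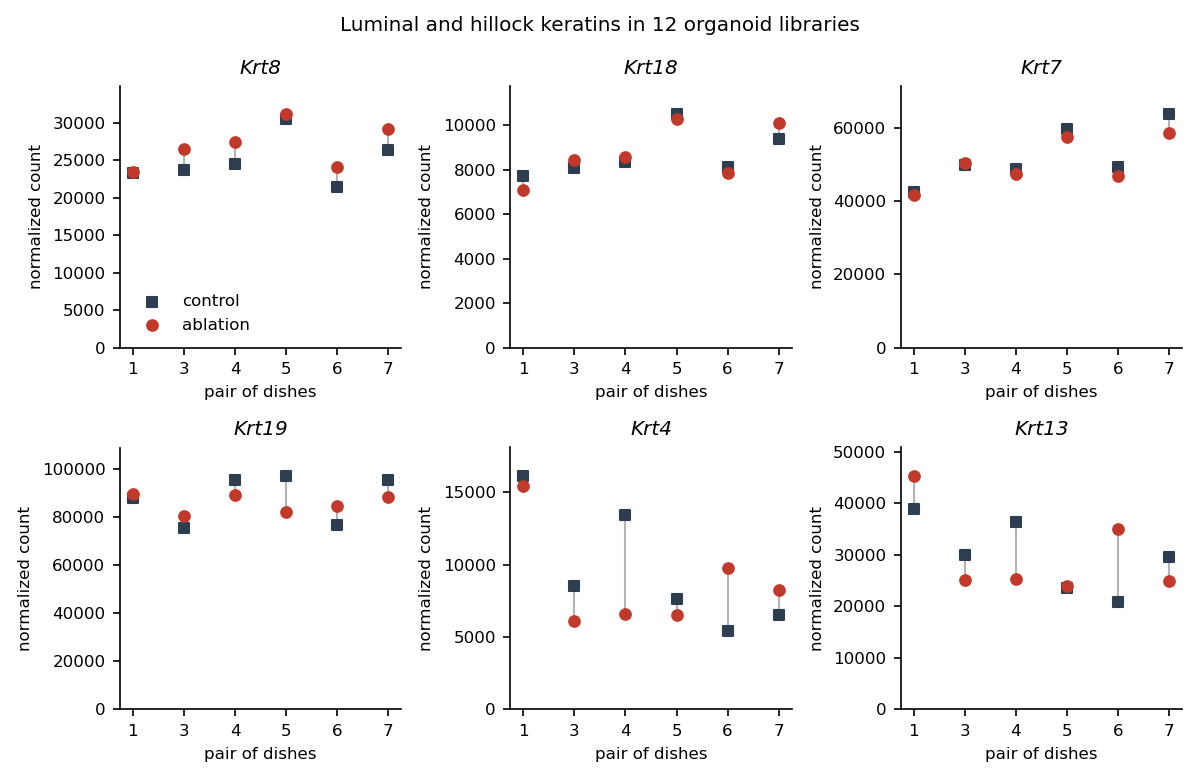
Normalized counts (y axis, from 0) of the 6 keratins in each pair of dishes (x axis, pair numbers). Red circles are ablation dishes, dark squares control dishes and grey lines join the 2 dishes of a pair. Krt8, Krt18 and Krt7 differed more between pairs than within them, whereas Krt4 and Krt13 were far apart within pairs 4 and 6 and in opposite directions.

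The main comparison asked whether destroying 10 cells per organoid changed the transcript levels of the organoid 4.5 h later. None of the 6 keratins changed at an adjusted p under 0.05, either with the library set as second factor or with the pair as a term (limma on log2 values, Benjamini-Hochberg adjustment over 13792 genes). The background was 0% of all genes called with the library set and 1.09% with the pair (150 genes, 93 higher and 57 lower after ablation). At an unadjusted p under 0.05, these models gave 1083 genes (7.85%) and 2433 genes (17.6%), of which Krt8 with the pair as a term was the only keratin of the 6. On recovered reads of 9 libraries, edgeR called 0 and DESeq2 11 genes, none of them a keratin of the 6. The median log2 difference of the 6 keratins was -0.019, beside -0.0036 for all genes tested. Whether the ablation response differed between the library sets was tested as an interaction, and none of the 6 passed (adjusted p 0.780 to 0.999, and none at an unadjusted p under 0.05, beside 7.88% of all genes). Past the threshold was 1 gene of all tested (0.00725%), the lactate transporter gene Slc16a3, which is named after its value was seen.

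Krt8, the type II keratin that marks the luminal layer, was slightly higher in the ablation dish of every pair. Its lowest, median and highest normalized counts were 23469, 26963 and 31146 in ablation and 21477, 24129 and 30502 in control dishes. The groups overlapped almost fully, with pair 5 highest in both. Within pairs, ablation exceeded control by 0.16, 0.16, 0.17 and 0.14 on the log2 scale in pairs 3, 4, 6 and 7, but by only 0.0099 and 0.030 in pairs 1 and 5. The mean difference was 0.11 (SE 0.089, adjusted p = 0.787 with library set as second factor, SE 0.038 and adjusted p = 0.160 with the pair as a term). An increase in 6 of 6 pairs was seen in 5.17% and a decrease in 4.63% of all genes tested. The mean difference of Krt8 was 0.066 within library set 1 and 0.16 within library set 2. Of 27 alternatives, it passed the threshold only after quantile normalization together with the pair as a term (0.15, adjusted p = 0.0378). It turned to -0.046 when the labels of the dishes of pairs 4, 6 and 7 were exchanged. With that exchange, 208 of all genes tested had an unadjusted p under 0.05 in limma with the library set, in place of 1083.

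Reads of the Krt8 pseudogene Krt8-ps cannot always be told from those of Krt8, since 22.0% of the 75-base windows of the Krt8 transcript (414 of 1884) occur there unchanged. Krt8-ps had a mean of 116 normalized counts, beside 25975 for Krt8. How reads that fit both genes were counted was not examined. Whether this lowered the level of Krt8, and its ratios to other keratins, was not tested. None of the windows of the other 5 keratins was found in another gene. Krt8 and Krt7 share 101 and 77 exon bases with genes on the opposite strand (Gm36026 and Gm671), which the strand-specific libraries keep apart where strand was used in counting.

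Krt18, the type I partner of Krt8, showed no common direction over the pairs. Its lowest, median and highest normalized counts were 7075, 8487 and 10251 in ablation and 7708, 8229 and 10494 in control dishes. The ablation dish was higher in 3 of 6 pairs, and the differences reached from -0.12 in pair 1 to 0.11 in pair 7 on the log2 scale. Their mean was 0.00040 (SE 0.10), with an adjusted p of 1.00 with the library set and 0.997 with the pair as a term. As for Krt8, pairs 5 and 7 held the 2 highest dishes of each group, and pair 1 held the lowest Krt18 dish of each.

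The ratio of Krt8 to Krt18 was higher in the ablation dish of each pair. This ratio was chosen after the values were seen and is given as a description, with no test. It was 2.88 to 3.32 in ablation dishes (3.11 ± 0.15, SD, n = 6) and 2.64 to 3.02 in control dishes (2.88 ± 0.14, SD, n = 6). The ranges overlapped, since pair 7 after ablation (2.88) lay below 4 of the control dishes, but within pairs the mean log2 difference was 0.11 with an SD of 0.065, a ratio of 1.08 between the dishes. The smallest difference was 0.034 (pair 7) and the largest 0.22 (pair 6). For comparison, 4.02% of all genes had a ratio to Krt18 that was higher in 6 of 6 pairs. The mean difference was 0.097 within library set 1 and 0.13 within library set 2, and with the labels of pairs 4, 6 and 7 exchanged it was -0.015.

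**Figure D2:**
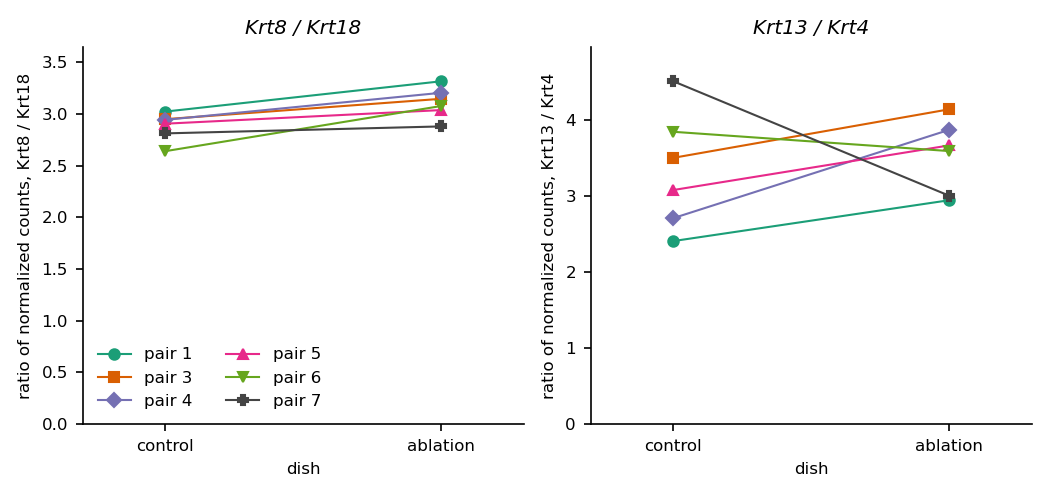
Ratio of normalized counts of Krt8 to Krt18 (left) and of Krt13 to Krt4 (right), with axes from 0. Each line joins the control and the ablation dish of a pair. Krt8 to Krt18 was higher after ablation in all 6 pairs (3.11 against 2.88 on average), whereas Krt13 to Krt4 was higher in 4 pairs and lower in 2.

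Krt7, a type II keratin of simple epithelium, was the keratin of the 6 with the most similar dishes within a pair. Its lowest, median and highest normalized counts were 41629, 48987 and 58706 in ablation and 42560, 49623 and 63776 in control dishes. Pair 7 was highest and pair 1 lowest in both groups. The ablation dish was lower in 5 of 6 pairs, by at most 0.12 on the log2 scale (pair 7), and slightly higher in pair 3 (0.018). The mean of -0.050 (SE 0.11, adjusted p = 0.936) did not pass, nor with the pair as a term (SE 0.036, adjusted p = 0.493). The ratio of Krt8 to Krt7 was also higher after ablation in 6 of 6 pairs (0.536 ± 0.031 against 0.481 ± 0.050, SD, n = 6), again as a description. The share of all genes with a ratio to Krt7 higher in 6 of 6 pairs was not computed, so this count has no background beside it.

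Krt19, the smallest type I keratin and the most abundant of the 6, was the steadiest across dishes, and its highest library was only 1.29 times its lowest. Its lowest, median and highest normalized counts were 80510, 86485 and 89543 in ablation and 75459, 91879 and 97456 in control dishes. The ablation dishes lay within the range of the controls and were closer together, with a coefficient of variation of 4.55% beside 11.3%. That spread was not tested. Ablation was higher in 3 of 6 pairs, and the mean log2 difference was -0.033 (SE 0.072, adjusted p = 0.939).

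Krt4 and Krt13, the hillock partners, varied most, and they did so in opposite directions in different pairs. Krt4 had 15434 and 16173 normalized counts in the ablation and the control dish of pair 1, 6067 and 8537 in pair 3, 6508 and 7646 in pair 5, 6550 and 13422 in pair 4, 9764 and 5425 in pair 6, and 8274 and 6542 in pair 7. Both dishes of pair 1 were thus high, whereas in pair 4 the control was 2.05-fold above the ablation dish and in pair 6 the ablation dish 1.80-fold above the control. Ablation was higher in 2 of 6 pairs, and the mean log2 difference was -0.11 (SE 0.28, adjusted p = 0.950). Leaving out pair 4 turned it to 0.079, leaving out pair 6 made it -0.30, and within library set 2 it was 0.051.

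Krt13 had 45420 and 38909 normalized counts in the ablation and the control dish of pair 1, 25104 and 29879 in pair 3, 23839 and 23526 in pair 5, 25341 and 36339 in pair 4, 35042 and 20843 in pair 6, and 24835 and 29480 in pair 7. It showed the same dishes on top as Krt4: both dishes of pair 1, the control dish of pair 4 (1.43-fold above its partner) and the ablation dish of pair 6 (1.68-fold above its partner). The direction of the 2 genes differed in pairs 1 and 5, with Krt13 higher and Krt4 lower after ablation, and in pair 7, with the reverse. Ablation was higher in 3 of 6 pairs, with a mean log2 difference of -0.0045 (SE 0.19, adjusted p = 0.997). The sign of this mean changed with the pair left out, from -0.16 without pair 6 to 0.099 without pair 4. The ratio of Krt13 to Krt4 lay between 2.41 (pair 1, control) and 4.51 (pair 7, control).

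**Figure D3:**
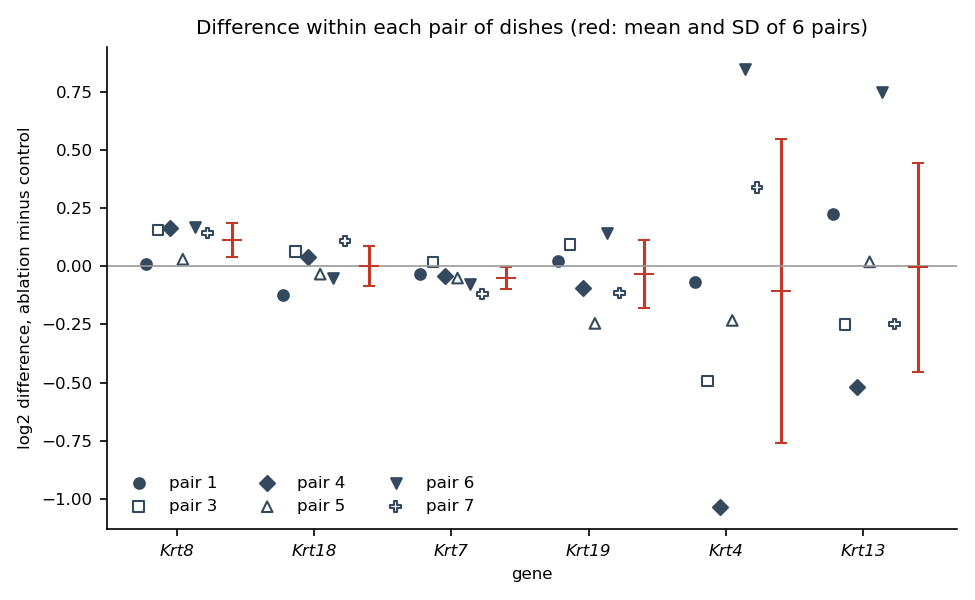
Log2 difference of ablation minus control (y axis) for each keratin (x axis) in the 6 pairs, with a symbol per pair. Red marks give the mean and SD of the 6 pairs. The Krt8 points all lie above 0, between 0.0099 and 0.17, whereas those of Krt4 reach from -1.03 in pair 4 to 0.85 in pair 6.

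The 6 keratins therefore differed in where their variation lay. For dishes that vary independently, the SD of the differences within pairs is 2 times the SD of the pair means. Krt7 had an SD of 0.046 for the differences and 0.20 for the pair means (ratio 0.23), Krt8 of 0.072 and 0.16 (ratio 0.45) and Krt18 of 0.085 and 0.18 (ratio 0.46). The 2 dishes of a pair were thus alike in these keratins, and the pairs differed. For Krt4 and Krt13, the ratios were 1.43 and 1.58, and Krt19 had SDs of 0.15 and 0.10, nearer to what independent dishes would give. Among the 1081 genes with a mean of at least 5000 normalized counts, 4.72% had a smaller SD of differences than Krt7, 23.9% than Krt8 and 36.9% than Krt18, but 99.5% had a smaller one than Krt13 and 99.9% than Krt4. The basal keratins Krt14 and Krt5 resembled Krt7 and Krt8 in this respect (ratios 0.35 and 0.43), and Krt15 varied widely both within and between pairs (SD 0.47 and 0.68).

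**Figure D4:**
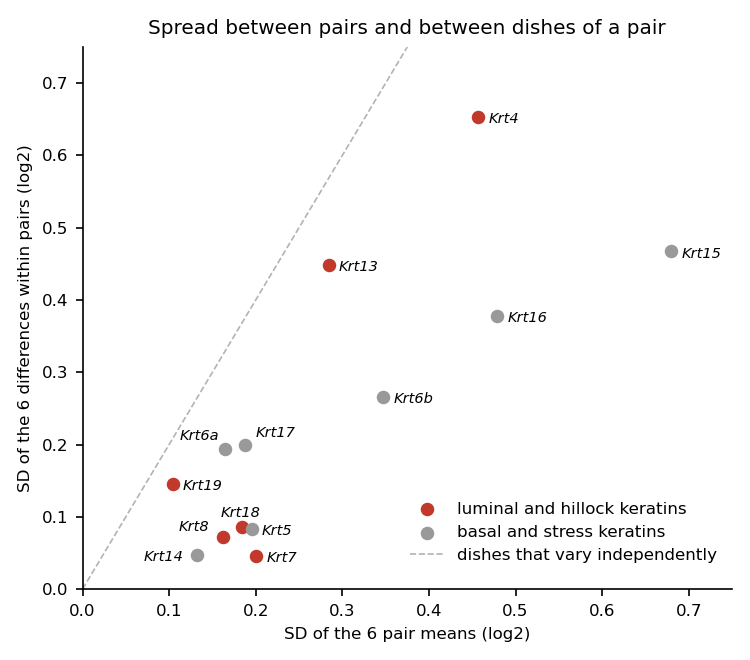
SD of the 6 log2 pair means (x axis) and SD of the 6 log2 differences within pairs (y axis) for the 6 luminal and hillock keratins (red) and the 7 basal and stress keratins (grey). The dashed line marks the ratio of 2 that dishes varying independently would have, and Krt4 and Krt13 lie near it at the top, whereas Krt7, Krt8 and Krt18 lie far below it.

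Krt8, Krt18 and Krt7 formed a group that varied together across pairs, and Krt4 and Krt13 formed another. Correlations are given as descriptions over 6 pairs that differ in passage, day and library set, with no p. Over the pair means of log2 values, r was 0.94 for Krt8 and Krt18 (Spearman's rho 0.94), 0.95 for Krt18 and Krt7 (rho 0.89) and 0.82 for Krt8 and Krt7 (rho 0.83). Without the 2 pairs farthest from the median of the first gene, these were 0.99, 0.89 and 0.94. Krt4 and Krt13 had an r of 0.97 (rho 0.83), and 0.83 without pairs 1 and 4. Between the groups, the correlations were negative, for example -0.80 for Krt7 and Krt13 (rho -0.54) and -0.77 for Krt18 and Krt13 (rho -0.60). Krt19 went with neither group (r 0.18 to 0.50). These groups were not particular to the 6 keratins. Over the 12 libraries, after removal of the library set means, 2 of 7 basal and stress keratins had an r of at least 0.70 with Krt8. These were Krt16 at 0.91 and Krt14 at 0.75, and 1 of 7 had such an r with Krt13 (Krt15 at 0.82).

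Within pairs, the pattern was different. The differences between ablation and control had an r of 0.81 for Krt4 and Krt13 (rho 0.83), and of -0.036 without pairs 4 and 6. For Krt8 and Krt18 it was 0.67 (rho 0.20), and it turned to -0.89 without pairs 1 and 5. For Krt7, r was -0.12 with Krt8 and -0.19 with Krt18, and these turned to 0.38 without pairs 1 and 5 and to 0.86 without pairs 1 and 7. With 6 pairs, the correlations of the differences thus depended on single pairs.

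**Figure D5:**
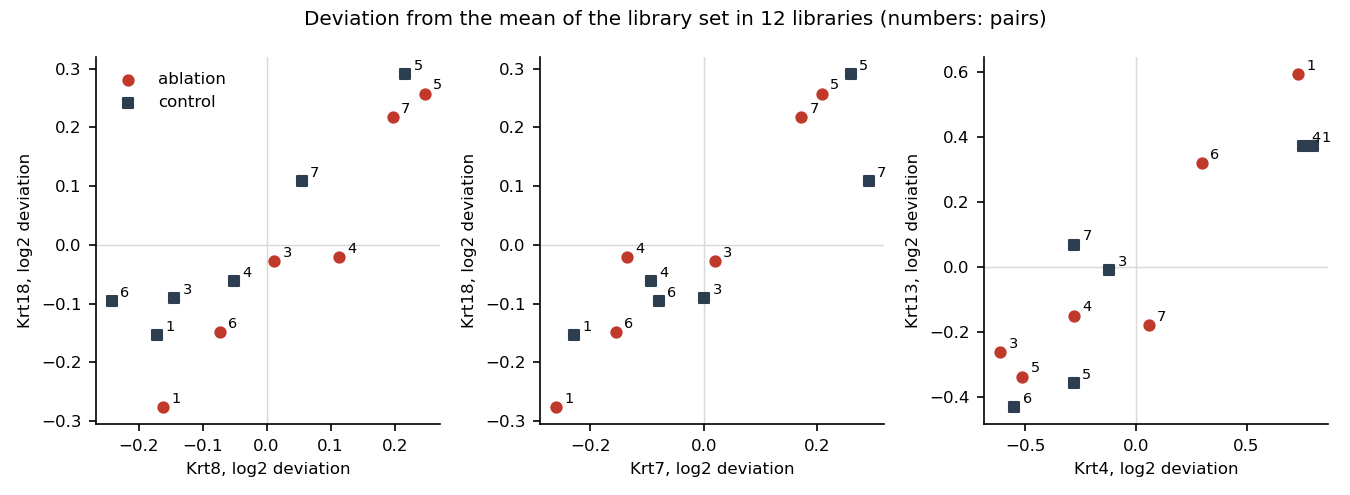
Log2 deviation of each of the 12 libraries from the mean of its library set, for Krt18 against Krt8 (left), Krt18 against Krt7 (middle) and Krt13 against Krt4 (right). Red circles are ablation dishes, dark squares control dishes and numbers the pairs. Pairs 5 and 7 were high in Krt18, Krt7 and Krt8, whereas both dishes of pair 1, the control of pair 4 and the ablation dish of pair 6 were high in Krt4 and Krt13.

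The pairs also allowed a comparison by culture day, with the pair mean as the value, days 18 to 20 (3 pairs) as late and days 14 and 15 (3 pairs) as early. The P2+15 pairs were both early and the P2+16 pairs both late, and passage was not in the model. Culture day and passage can therefore not be fully told apart here. None of the 6 keratins passed, nor at an unadjusted p under 0.05 (6.49% of all genes did), and none had all late pairs above or below all early ones. Only 1 gene of 13792 passed (0.00725%), Igfbp5, which was lower in late pairs and is named after its value was seen. An order of all early above all late pairs was seen in 5.34% and the reverse in 4.39% of genes. The largest difference was that of Krt4, at 10956 ± 4443 normalized counts in early and 7435 ± 148 in late pairs (SD, n = 3), a log2 difference of -0.46 (SE 0.29, adjusted p = 0.834). The early mean rested on pair 1 (15804), as pair 5 with 7077 lay below all 3 late pairs. The log2 difference of Krt4 was -0.19 without pair 1, -0.69 without pair 5 and -0.78 in control dishes alone, where its unadjusted p was 0.0496 and its adjusted p 0.689. Krt13 showed the same, at 32229 ± 9319 and 27531 ± 394 (log2 difference -0.19, SE 0.21, adjusted p = 0.911). The late pair means of both genes were close together although the 2 dishes of pair 6 were far apart. For Krt19 the difference was -0.15, for Krt8 -0.073, for Krt18 -0.014 and for Krt7 0.094 (adjusted p 0.813 to 0.993), and that of Krt7 was 0.0023 without pair 1.

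Genes that belong with these keratins were described by lists, of which none had a gene called with the library set as second factor. With the pair as a term, the basal and stress keratins had 0 of 7 called, the other epithelial keratins 0 of 8 tested (of 14 listed), with Krt23 as the most abundant, and the linkers of keratin filaments 0 of 14, with the desmosomal protein gene Dsp (44280 to 62451 normalized counts) as the most abundant. In all, 1.09% of the genes tested were called, so lists of this size with 0 calls do not stand apart from the background. Median log2 differences were 0.019, -0.15 and 0.013 for these lists, beside -0.0036 for all genes.

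With the pair as a term, 5 genes of the hillock, basal, secretory and transcription factor lists were called, and these calls depended on the model and on the pairs included. Of 14 tested hillock and squamous markers, 1 rose and 1 fell, beside 0.674% and 0.413% of all genes. Lgals3, the galectin-3 gene, rose by 0.27 on the log2 scale (18847 ± 3357 normalized counts against 15600 ± 2712, SD, n = 6, adjusted p = 0.00980, higher in 6 of 6 pairs). Spink5, which encodes a serine protease inhibitor, fell by 0.33 (17826 ± 2968 against 22289 ± 2055, adjusted p = 0.0111, lower in 6 of 6 pairs). Of 14 epithelial transcription factors tested, Trp63, the p63 gene of basal cells, rose by 0.39 (9844 ± 1141 against 7505 ± 917, adjusted p = 0.00825, higher in 6 of 6 pairs) and Sox2 fell by 0.17 (3494 ± 397 against 3940 ± 410, adjusted p = 0.0488, lower in 6 of 6 pairs). Trp63 was also the only call among 11 basal markers without keratins. Among 7 secretory markers tested, Aldh1a1, a retinaldehyde dehydrogenase, rose by 0.42 (3890 ± 825 against 2905 ± 600, adjusted p = 0.00184, higher in 6 of 6 pairs). Few markers of other cells could be tested (2 multiciliated, 4 tuft, neuroendocrine or ionocyte, 4 alveolar, 1 fibroblast or smooth muscle and 3 immune or endothelial), and 0 of these were called, beside 1.09% of all genes. With the library set as second factor, the adjusted p of Lgals3, Spink5, Trp63, Sox2 and Aldh1a1 was 0.187 to 0.642. With the pair as a term but plain eBayes in place of trend and robust estimation, 0 of all genes were called (2190 at an unadjusted p under 0.05), and the 5 genes had an adjusted p of 0.121 to 0.167. Of 11 alternatives with the pair as a term, Aldh1a1 passed in 10, Trp63 in 7, Lgals3 and Spink5 in 6 each and Sox2 in 1, each with the same sign in all 11. Without pair 4, Lgals3 (adjusted p = 0.0555), Spink5 (0.0562), Trp63 (0.0541) and Sox2 (0.161) did not pass, and Sox2 did not pass whichever pair was left out (0.0541 to 0.161). Whether the difference in any of these genes differed from that of the keratins was not tested.

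The genes most like each keratin over the 12 libraries, after removal of the library set means, are named with Pearson's r, and as the libraries share pairs these are descriptions. For Krt8 they were Rhpn2 (0.97), 2200002D01Rik (0.96) and Tinagl1 (0.96), for Krt18 Tm4sf1 (0.95), Slc4a4 (0.94) and Htr1d (0.94), and for Krt7 Ifit3b (0.94), Chrnb1 (0.91) and again Slc4a4 (0.91). Slc4a4, a sodium bicarbonate cotransporter gene, was thus shared by Krt18 and Krt7. For Krt19 they were Tax1bp3 (0.95), Dip2c (0.93) and Commd9 (0.90), for Krt4 Oxa1l (0.97), Tmem56 (0.95) and Ssh2 (0.94), and for Krt13 Fermt3 (0.95), Aldh1b1 (0.94) and Sobp (0.94). Htr1d had a mean of only 21.5 normalized counts. Among the 6 keratins, Krt13 had an r of 0.91 with Krt4, and 99.9% of genes had a lower r to Krt4. Krt18 had an r of 0.89 with Krt8 (99.7% of genes lower), and Krt7 an r of 0.91 with Krt18 (99.9% of genes lower).

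The marker genes that varied with Krt8 or Krt13 over the 12 libraries were counted by list. An r of at least 0.70 with Krt13 was found in 4.86% and with Krt8 in 4.15% of all genes. For Krt13, this held for 2 of 7 secretory markers (Cyp2f2 at 0.73 and Lypd2 at 0.74), 3 of 11 basal markers without keratins (among them the aquaporin gene Aqp3 at 0.76) and 3 of 14 transcription factors. It also held for 1 of 7 basal and stress keratins (Krt15 at 0.82, the neighbour of Krt13 on chromosome 11), 1 of 8 other epithelial keratins and 0 of 14 hillock and squamous markers. For Krt8, it held for 4 of 14 hillock and squamous markers (among them Lgals3 at 0.80), 3 of 14 filament linkers and 2 of 11 basal markers without keratins. It also held for 2 of 7 basal and stress keratins (Krt16 at 0.91 and Krt14 at 0.75), 1 of 8 other epithelial keratins and 0 of 7 secretory markers. In the opposite direction, an r of at most -0.70 was found in 2.44% of all genes with Krt13 and in 2.55% with Krt8. With Krt13 it held for 1 of 14 hillock and squamous markers (Ivl at -0.75), 1 of 11 basal markers (Snai2 at -0.74), 1 of 14 filament linkers, 1 of 8 other epithelial keratins and 1 of 4 tuft, neuroendocrine and ionocyte markers. With Krt8 it held for 1 of 7 secretory markers (Lypd2 at -0.86), 1 of 14 transcription factors (Tfap2a at -0.81) and 1 of 11 basal markers (Dapl1 at -0.78). Median r over the 11 basal markers was -0.14 with Krt13 and -0.13 with Krt8. Genes named here other than Krt15, Krt14 and Lgals3 were chosen after their values were seen, and the part of any of these genes in the variation of the keratins was not tested.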

How the data were processed

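Poly(A)-selected, stranded libraries of 12 dishes were sequenced as read pairs of 75 bases. Per the study's methods, the authors aligned and counted reads with the nf-core/rnaseq pipeline on GENCODE annotation (GRCm38.p6 per the labels), and normalized them with DESeq2. Their DESeq2 comparison had condition and batch as factors. The batch is not defined in the sources used here and was taken as the library set. The deposited values used here are a signal in normalized counts. The deposited table also holds the authors' own comparison (a log2 fold change, its error and a Wald score per gene, with p-values), which was not used. In all 12 libraries, 100% of low values lay within 0.1 of a whole number of reads when divided by a step. Read numbers were accepted as recovered in 9 of them. Ablation 3, ablation 4 and control 4 were not accepted, because their steps (0.999, 0.990 and 1.01) lay close to 1.

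Values were transformed as log2(normalized count + 1), so fold changes are on that scale, and fitted with limma 3.58.1 (R 4.3.3, trend and robust estimation) with condition and library set, for the 13792 genes that reached 10 normalized counts in 6 or more libraries. p-values were adjusted by Benjamini-Hochberg over all of them, with a threshold of 0.05. Culture day was tested on pair means, and the difference of the response between library sets as an interaction with the pair as a term. Alternatives included the pair as a block, edgeR 4.0.16 and DESeq2 1.42.0 on recovered reads, and pairs left out. The labels give the 2 dishes of a pair the same passage and culture day, and same-numbered dishes deviated together from their group means (r 0.21 to 0.62, beside mean r of -0.14 to -0.025 for other numbers). Removal of the group means in itself pulls the r with other numbers below 0. Same-numbered dishes also share a library set. The labels do not say whether pairs came from separate mice, so no p-value can be read as a spread between mice. With the library set as second factor, p-values measure the spread between dishes. For culture day they measure the spread between pairs, and with the pair as a term that of the differences within pairs.

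The 6 keratins and all gene lists were chosen with earlier results of these data known. Named genes were the 6 keratins, Krt5, Krt14 and Krt15, genes that share reads with a member, the 3 genes most correlated with each member, and from each list the genes called or else the most abundant. The markers given to check the tissue and some of the correlated markers lie outside this rule and were chosen after their values were seen. Gene structure was taken from GENCODE vM21, which held 98.1% of the listed gene identifiers in the same version. Promoters were from RefSeq.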

Additional observations from a re-analysis of the deposited data

How the results depend on the processing

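No keratin of the 6 passed for culture day under any of 15 alternatives, and for ablation only Krt8 passed, under 1 of 27. Counting error was at most 1.35% for a keratin of the 6 in the libraries with recovered reads, so depth did not limit these values. With the pair as a replicate block, 150 genes were called in place of 0, and no keratin's call changed, but with plain eBayes and the block it was 0 again (2190 at an unadjusted p under 0.05). Further counts of called genes for ablation were 3 with all genes that had any count, 168 with quantile normalization and the block (1 keratin of the 6, Krt8, at 0.15 and adjusted p = 0.0378), 16 and 109 within library sets 1 and 2 with the block, 0 with each pair left out and 8 to 176 with the block as well (8 without pair 4, 77 without pair 5 and 90 without pair 3), 3 by edgeR on recovered reads with the block and 11 by DESeq2 on recovered reads of 9 libraries. For culture day, in place of 1, counts were 2 with the pair as a random block, 12 with all genes that had any count, 0 in control dishes alone, with culture day as a number, without library set and with plain eBayes, and 0 to 3 with a pair left out (3 without pair 1).

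Signs changed where differences were near 0. With quantile normalization, with or without the block, log2 differences were 0.015 for Krt19, 0.0051 for Krt7 and 0.029 for Krt13. With the labels of pairs 4, 6 and 7 exchanged, they were -0.046 for Krt8, -0.032 for Krt18, 0.029 for Krt7 and 0.0015 for Krt13, and -0.015 for the ratio of Krt8 to Krt18. With the block, Krt18 was at -0.031 within library set 1 and Krt4 at 0.051 within library set 2. With a pair left out, Krt18 ranged from -0.021 to 0.025, Krt19 from -0.068 to 0.0094, Krt4 from -0.30 to 0.079 and Krt13 from -0.16 to 0.099, with or without the block. On recovered reads, Krt4 was at 0.28 and Krt13 at 0.21 by edgeR, and at 0.29 and 0.21 by DESeq2. These libraries lack pair 4 and the ablation dish of pair 3. With the block, edgeR gave 0.22 and 0.19, and Krt18 was at -0.022. That fit also left out the control dish of pair 3. For culture day, Krt18 was at 0.0071 with day as a number, and over the omissions of a pair it lay between -0.11 and 0.10 and Krt8 between -0.15 and 0.016. The values of single keratins on recovered reads, edgeR with the block and the alternatives for the ratio were chosen after seeing the data. Quantile normalization and TMM factors moved the median of all genes by 0.00047 and 0.0017 (log2).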
